A study of Mus musculus with 9 samples.

Results

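The dual-specificity MAP kinase phosphatases were taken as 10 genes of the family, chosen by symbol: Dusp1, Dusp3, Dusp4, Dusp5, Dusp6, Dusp7, Dusp8, Dusp10, Dusp14 and Dusp16. All 10 were found, each in 1 row, among the 18275 genes of the table, and all 10 passed the filter on low values and were tested. Hippocampal RNA was sequenced from 9 adult male C57BL/6N mice aged 11 to 15 weeks, with 1 library per animal. The 4 Nestin;BrafKE/+ mice carried a Braf allele encoding the K499E substitution at the endogenous locus, which Nestin-Cre turns on in neural stem cells. The mutation was therefore inherited by neurons and glia, whereas microglia, which arise outside the neural lineage, were not expected to carry it. The 5 Braf+/+ mice were littermate controls without the mutant allele, and whether they carried Cre was not given in the sources used here. A gene-level table does not separate the mutant from the normal Braf transcript, so it holds no direct check of the genotype labels.

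Library names fell into 3 series, here A (mutant replicate 1 with control replicates 1, 2 and 3), B (mutant replicates 2 and 3 with control replicate 4) and C (mutant replicate 4 with control replicate 5), and the series served as a term in the test. With that term, a series that holds a single genotype adds nothing to the genotype difference. Leaving out the only mutant of A, the only control of B or either library of C therefore leaves out that whole series. Values are normalised signals that the authors had adjusted for batches, with library totals from 19551312 to 20091532, and the sequencing depth behind them is unknown. A log2 fold change had a typical standard error of 0.10 at the signal of Dusp1, Dusp4, Dusp5, Dusp10, Dusp14 and Dusp16 and of 0.06 at that of the others (medians over all genes of like signal). All 8 hippocampal neuron markers were present, among them Prox1, but no value of the whole table is 0, so presence does not show the tissue. Markers of the choroid plexus, a tissue of the ventricles beside the hippocampus, stood out in 2 controls, with a summed signal of 391435 in Braf+/+ replicate 2 and 113647 in Braf+/+ replicate 4, against 1387 to 24368 in the mutants.

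BRAF activates MEK, which phosphorylates ERK on a threonine and a tyrosine. Dual-specificity phosphatases of the MAP kinase phosphatase type remove both phosphates, and since ERK signalling induces several of them, they form a negative feedback loop. Most dock on their substrate through a kinase interaction domain, which sets whether ERK, p38 or JNK is preferred. DUSP6 and DUSP7 are cytoplasmic and DUSP5 nuclear, and these 3 prefer ERK. DUSP1 and DUSP4 are inducible nuclear enzymes that act on ERK, p38 and JNK. DUSP8, DUSP10 and DUSP16 prefer p38 and JNK, and DUSP3 and DUSP14 are small atypical enzymes without the docking domain.

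The upstream regions of 4 members are shown first: those of Dusp6, Dusp4 and Dusp5, the members that were higher in the mutants, and that of Dusp8, the most abundant p38/JNK-selective member, which did not pass the test. Each is the 250 bases before the canonical start in the GRCm39 genome with the Gencode vM39 annotation, read in the direction of transcription. The number of annotated exons overlapping the window was 2 for Dusp6, 1 for Dusp4, 1 for Dusp5 and 3 for Dusp8. The windows of Dusp6 and Dusp8 lie within the annotated bounds of their genes, so they are not free of transcribed sequence. Dusp6 is at chr10:99098818-99099067 on the plus strand, Dusp4 at chr8:35274192-35274441 on the plus strand, Dusp5 at chr19:53517282-53517531 on the plus strand and Dusp8 at chr7:141649053-141649302 on the minus strand. Capitals mark matches to the motifs described after the sequences.
Dusp6: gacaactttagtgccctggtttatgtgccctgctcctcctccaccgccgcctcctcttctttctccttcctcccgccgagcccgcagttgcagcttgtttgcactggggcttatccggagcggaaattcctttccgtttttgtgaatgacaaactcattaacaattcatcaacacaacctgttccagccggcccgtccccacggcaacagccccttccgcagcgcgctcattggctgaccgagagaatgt
Dusp4: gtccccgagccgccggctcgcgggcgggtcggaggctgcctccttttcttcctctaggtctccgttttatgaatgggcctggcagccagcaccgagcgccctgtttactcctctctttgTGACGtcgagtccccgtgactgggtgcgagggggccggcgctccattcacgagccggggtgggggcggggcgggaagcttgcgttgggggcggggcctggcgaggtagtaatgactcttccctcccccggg
Dusp5: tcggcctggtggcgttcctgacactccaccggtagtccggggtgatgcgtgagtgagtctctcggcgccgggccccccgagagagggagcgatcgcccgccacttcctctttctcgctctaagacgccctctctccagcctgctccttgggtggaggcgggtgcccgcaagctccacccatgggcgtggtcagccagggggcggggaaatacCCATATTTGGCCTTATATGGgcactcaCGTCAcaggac
Dusp8: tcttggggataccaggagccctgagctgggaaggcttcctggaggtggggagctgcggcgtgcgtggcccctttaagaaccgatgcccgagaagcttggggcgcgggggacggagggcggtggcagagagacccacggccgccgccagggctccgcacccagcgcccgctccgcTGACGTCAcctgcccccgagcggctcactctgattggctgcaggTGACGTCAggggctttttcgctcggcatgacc

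The motifs searched on both strands were the cAMP response element TGACGTCA, its half-site TGACG (also counted within the full element), the AP-1 site TGANTCA, the ETS site CCGGAA, the TATA box TATAAA and the CArG box, the serum response factor site. The full cAMP response element was found at 2 places in Dusp8, starting 76 and 32 bases before the start, and once in Dusp1, in a set where 1.69% of 21770 protein-coding promoters of the same length held it. The half-site, found in 18.0% of promoters, was present in Dusp1, Dusp4, Dusp5 and Dusp8. Dusp5 held 2 CArG boxes, starting 38 and 28 bases before the start, and 1.40% of promoters held that motif. The ETS site was in Dusp14 alone among the 10 members and in 12.4% of promoters. The Dusp14 window overlaps 8 annotated exons and the Dusp1 window 3, so these 2 are not free of transcribed sequence either. The AP-1 site (6.17% of promoters) and the TATA box (11.9%) were in 0 of the 10, and the Dusp6 window held 0 of the 6 motifs. A match of letters is a description of the sequence, and no match says only that these letters are not in this window.

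The 4 mutants were compared with the 5 controls to ask how each phosphatase differed between the genotypes. The ERK-selective Dusp6 and the broad-range Dusp4 were higher in Nestin;BrafKE/+ by 1.98-fold and 1.94-fold, Dusp5 was 1.40-fold higher and the atypical Dusp14 was lower, at 0.722 of the control mean. With limma and adjustment over all 16196 genes tested, 4 of the 10 members passed the threshold of 0.05, against 2.88% of all genes. By direction, 3 members were higher (background 1.52%) and 1 was lower (1.36%). Mutant and control signals were fully apart for 5 members, these 4 and Dusp7, against 15.7% of all genes. The median log2 fold change of the 10 was 0.13 (0.00 over all genes), and the 5th and 95th percentiles of all genes were -0.43 and 0.42.

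**Figure D1:**
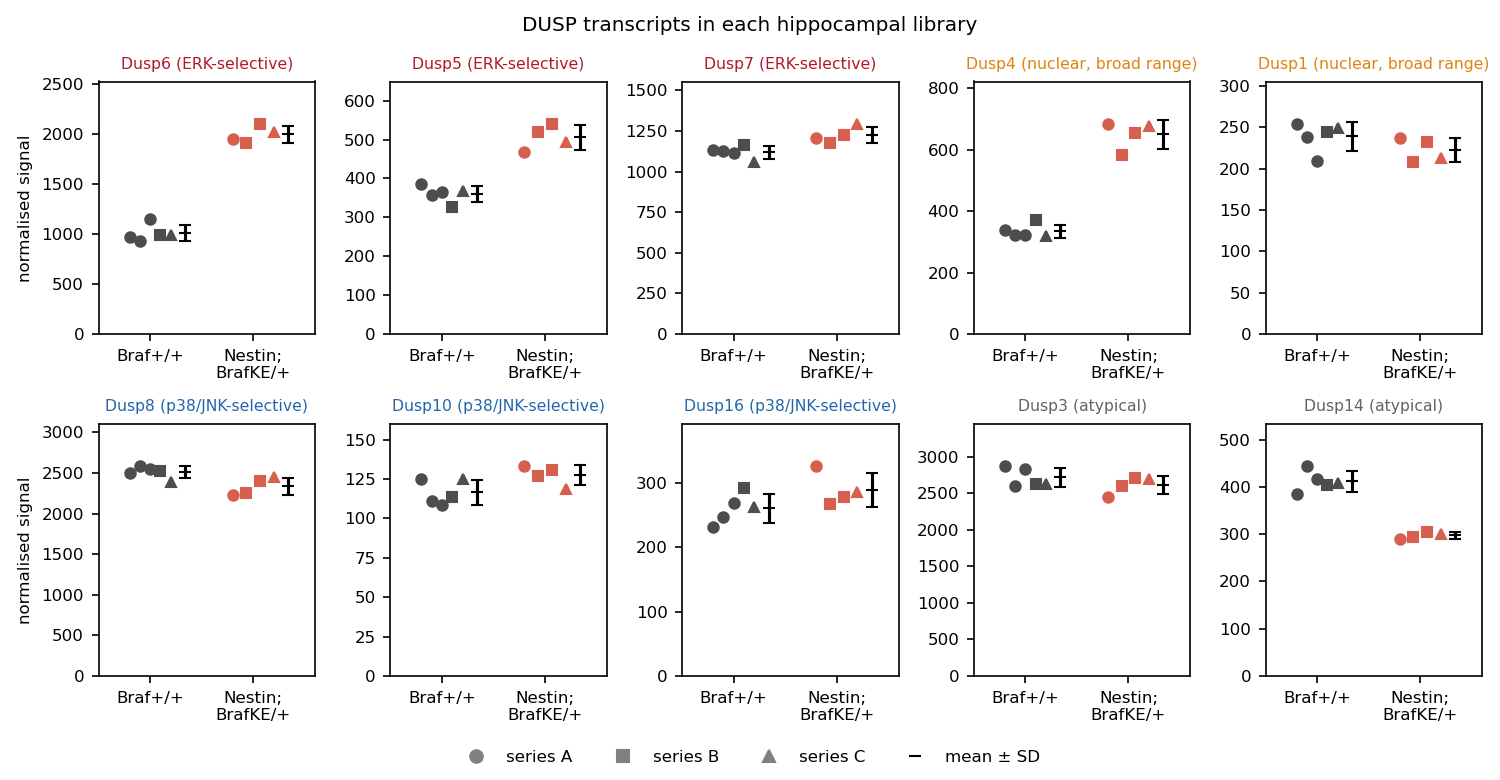
Normalised signal of each of the 10 phosphatases in each library, with a panel per gene, 1 point for each of the 5 Braf+/+ and 4 Nestin;BrafKE/+ libraries, its shape giving the series, and the group mean with its SD beside the points. The groups are apart for Dusp4, Dusp5, Dusp6, Dusp7 and Dusp14 and overlap for the other 5.

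Among the ERK-selective members, Dusp6 (ENSMUSG00000019960, chr10:99086564-99103361, plus strand), the cytoplasmic ERK phosphatase, had signals of 1952, 1915, 2108 and 2024 in Nestin;BrafKE/+ replicates 1 to 4. In Braf+/+ replicates 1 to 5 they were 969, 936, 1148, 996 and 994. Every mutant lay above every control, by at least 1915 against 1148. Means were 1009 ± 81.6 (SD, n = 5) in controls and 2000 ± 84.9 (SD, n = 4) in mutants, which is 0.99 higher on the log2 scale (SE 0.07, 95% interval 0.83 to 1.15, limma adjusted p = 0.000325). Its unadjusted p of 3.86e-08 in limma was the lowest of the 16196 genes, and it ranked 102 by log2 fold change. The difference was close in size in each series, with 0.94 for A, 1.01 for B and 1.03 for C. The predicted gene Gm56968 overlaps Dusp6 on the same strand, so some of its reads cannot be assigned with certainty.

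Dusp5 (ENSMUSG00000034765, chr19:53517532-53530862, plus strand), the inducible nuclear ERK phosphatase that can also hold ERK in the nucleus, measured 468, 519, 541 and 495 in the mutants and 385, 358, 364, 326 and 367 in the controls. The groups did not overlap. The means of 505.5 ± 31.5 (SD, n = 4) and 360.1 ± 21.3 (SD, n = 5) gave a log2 fold change of 0.49 (SE 0.09, 95% interval 0.30 to 0.68, limma adjusted p = 0.0172), with 0.34, 0.70 and 0.43 within series A, B and C. This call was lost in 3 of the 9 fits that left out 1 library. The limma adjusted p was 0.0594 without Nestin;BrafKE/+ replicate 1, 0.0532 without Nestin;BrafKE/+ replicate 3 and 0.105 without Braf+/+ replicate 4. Leaving out the first or the last of these also took its whole series out of the genotype comparison.

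Dusp7 (ENSMUSG00000053716, chr9:106245143-106252923, plus strand), a cytoplasmic ERK phosphatase like DUSP6, had signals of 1206, 1173, 1227 and 1295 in the mutants and 1131, 1128, 1112, 1166 and 1058 in the controls. The lowest mutant was 1173 and the highest control 1166, so the groups were apart by a small margin. The log2 fold change was 0.13 (SE 0.06, 95% interval -0.0022 to 0.26) and did not pass the test (limma adjusted p = 0.280). An exact two-sided permutation over all assignments of the libraries to groups of 4 and 5 gave p = 0.0159. That p is unadjusted and takes no account of series, and the same test gave 0.0317 for the p38/JNK-selective Dusp8. In limma the unadjusted p of Dusp7 was 0.0532. The genotype difference of Dusp7 was smaller than that of Dusp6. The log2 ratio of Dusp7 to Dusp6 was 0.15 ± 0.13 (SD, n = 5) in controls and -0.71 ± 0.06 (SD, n = 4) in mutants, with an exact permutation p of 0.00794, the smallest those assignments can give. Permuted within series, where no p below 0.0417 is possible, its adjusted p was 0.0556.

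Of the inducible nuclear enzymes of broad range, Dusp4 (ENSMUSG00000031530, chr8:35274442-35287048, plus strand) had signals of 685, 581, 653 and 678 in the mutants and 339, 323, 321, 370 and 319 in the controls. Every mutant exceeded every control. The means were 649 ± 47.4 (SD, n = 4) and 334 ± 21.3 (SD, n = 5), and the log2 fold change was 0.95 (SE 0.09, 95% interval 0.76 to 1.15, limma adjusted p = 0.00106). It was the sixth gene by unadjusted p in limma, and the differences within series were 1.06, 0.74 and 1.08 in A, B and C. The calls for Dusp4 and Dusp6 were kept when any 1 of the 9 libraries was left out, with adjusted p-values from 0.00157 to 0.0218 for Dusp4 and from 0.000158 to 0.00977 for Dusp6.

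Dusp1 (ENSMUSG00000024190, chr17:26724564-26781102, minus strand), an immediate early gene that is also induced by stress and glucocorticoids, measured 237, 208, 232 and 212 in the mutants and 254, 238, 209, 244 and 249 in the controls. The groups overlapped, since the lowest control, Braf+/+ replicate 3, lay among the mutants. The log2 fold change was -0.10 (SE 0.11, 95% interval -0.34 to 0.13, limma adjusted p = 0.648), and it was 0.02, -0.15 and -0.23 in series A, B and C. Its interval lay below that of Dusp4 throughout. The log2 ratio of Dusp4 to Dusp1 was 0.48 ± 0.12 (SD, n = 5) in controls and 1.54 ± 0.09 (SD, n = 4) in mutants, a difference of 1.06 (exact permutation p = 0.00794). Predicted genes overlap Dusp1 on the same strand.

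Of the p38/JNK-selective members, 0 of 3 passed the test in limma, and 0 had an unadjusted limma p under 0.05, which 18.5% of all genes tested had. With 3 genes, 0 lies near that background. Dusp8 (ENSMUSG00000037887, chr7:141633226-141649580, minus strand), a brain-rich phosphatase of JNK and p38, measured 2234, 2259, 2396 and 2446 in the mutants and 2498, 2590, 2543, 2522 and 2393 in the controls. Braf+/+ replicate 5 was below the 2 highest mutants. The log2 fold change was -0.11 (SE 0.05, 95% interval -0.22 to 0.01, limma adjusted p = 0.328), and series A and B gave -0.19 and -0.12 where series C gave 0.03. For Dusp8 the exact permutation p over all assignments of the libraries was 0.0317, unadjusted.

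Dusp10 (ENSMUSG00000039384, chr1:183745499-183807842, plus strand), which acts on JNK and p38, had the lowest signals of the 10, at 134, 127, 131 and 119 in the mutants and 125, 111, 109, 113 and 125 in the controls. These overlapped, with a log2 fold change of 0.13 (SE 0.13, 95% interval -0.15 to 0.41, limma adjusted p = 0.629), and the predicted gene Gm70451 overlaps it on the same strand. Dusp16 (ENSMUSG00000030203, chr6:134692431-134784241, minus strand), a JNK phosphatase, measured 326, 266, 278 and 285 in the mutants and 232, 247, 269, 291 and 262 in the controls. The overlap was wide, and the sign varied between series, with 0.39, -0.10 and 0.12 in A, B and C. The combined log2 fold change of Dusp16 was 0.15 (SE 0.11, 95% interval -0.09 to 0.39, limma adjusted p = 0.510).

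The atypical enzymes were Dusp14 and Dusp3. Dusp14 (ENSMUSG00000018648, chr11:83938521-83960087, minus strand), also known as MKP6, had signals of 290.1, 294, 305 and 300.1 in the mutants and 385, 445, 416, 405 and 408 in the controls. All mutants lay below all controls. With means of 412 ± 22.0 (SD, n = 5) in controls and 297.5 ± 6.75 (SD, n = 4) in mutants, the log2 fold change was -0.47 (SE 0.08, 95% interval -0.65 to -0.28, limma adjusted p = 0.0171), with -0.51, -0.43 and -0.44 in series A, B and C. The call was lost without Nestin;BrafKE/+ replicate 1 (adjusted p = 0.117) or Braf+/+ replicate 4 (0.0798).

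Dusp3 (ENSMUSG00000003518, chr11:101861969-101877839, minus strand), also known as VHR, measured 2448, 2595, 2705 and 2695 in the mutants and 2877, 2603, 2837, 2632 and 2628 in the controls. The groups overlapped, and the log2 fold change was -0.06 (SE 0.06, 95% interval -0.19 to 0.07, limma adjusted p = 0.647). The log2 ratio of Dusp14 to Dusp3 was lower in mutants by a difference of -0.41 (exact permutation p = 0.00794).

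**Figure D2:**
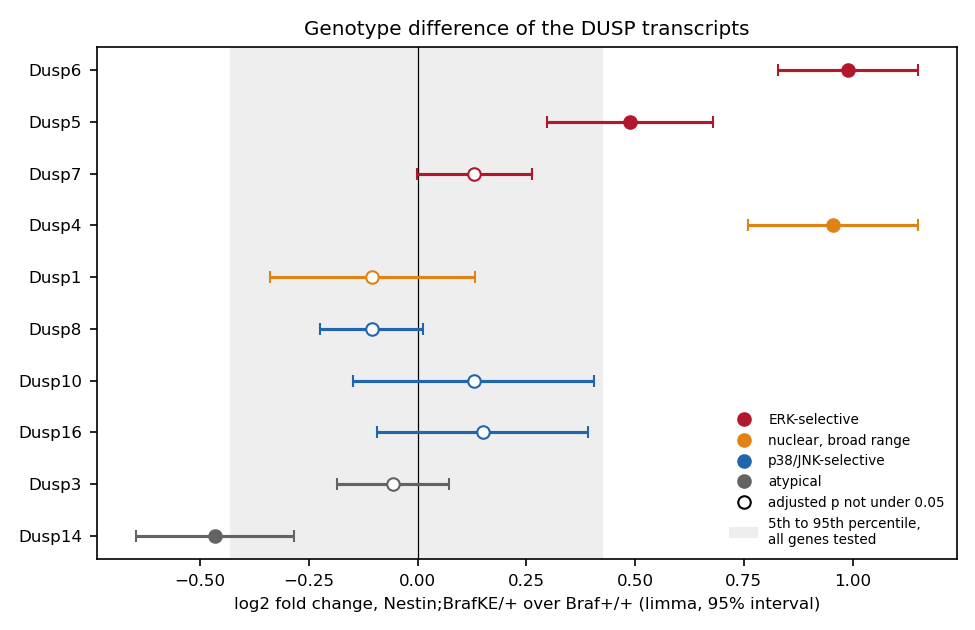
Log2 fold change of each phosphatase, Nestin;BrafKE/+ less Braf+/+, with its 95% interval from limma, grouped by substrate preference; open points did not pass the threshold, and the grey band spans the 5th to 95th percentile of all genes tested. Dusp6 at 0.99, Dusp4 at 0.95 and Dusp5 at 0.49 lie to the right of zero and Dusp14 at -0.47 to the left.

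By substrate preference, 3 of 3 ERK-selective members had positive values and 2 passed the test, with a median log2 fold change of 0.49. Of the p38/JNK-selective members, 2 of 3 had positive values and 0 passed, with a median of 0.13. The difference of the 2 medians was 0.36. These are 3 chosen genes a class, so no test was made of it. Per library, the mean centred log2 level of the ERK-selective class ran from 0.24 to 0.36 in mutants and from -0.27 to -0.17 in controls. That of the p38/JNK-selective class ran from -0.02 to 0.09 in mutants and from -0.06 to 0.02 in controls, which overlap. The separation of the ERK-selective class follows from its 3 members, each of which was already higher in every mutant, so it is not further support. Members outside this pattern were Dusp4 of the broad-range pair, whose log2 fold change of 0.95 was near that of Dusp6, and the ERK-selective Dusp7, whose value of 0.13 was that of Dusp10.

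Members of 1 class were compared with each other by the log2 ratio of their signals in each library, in 8 pairs. After Benjamini-Hochberg adjustment of the exact permutation p over the 8, 6 pairs passed at 0.05. Among the ERK-selective members, the log2 ratio of mutants less controls was 0.50 for Dusp6 over Dusp5, -0.36 for Dusp7 over Dusp5 and -0.86 for Dusp7 over Dusp6, each with an adjusted p of 0.0127. Dusp16 increased relative to Dusp8 by 0.26 (exact permutation, adjusted p = 0.0212), a call lost without Nestin;BrafKE/+ replicate 1 (0.17, adjusted p = 0.0714), whereas the ratio of Dusp10 to Dusp8, at 0.23, had an adjusted p of 0.0544 and that of Dusp16 to Dusp10, at 0.02, had 0.889. When libraries were permuted only within series, the 24 assignments allow no p below 0.0417, and 0 of the 8 pairs passed after adjustment (lowest adjusted p = 0.0556).

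**Figure D3:**
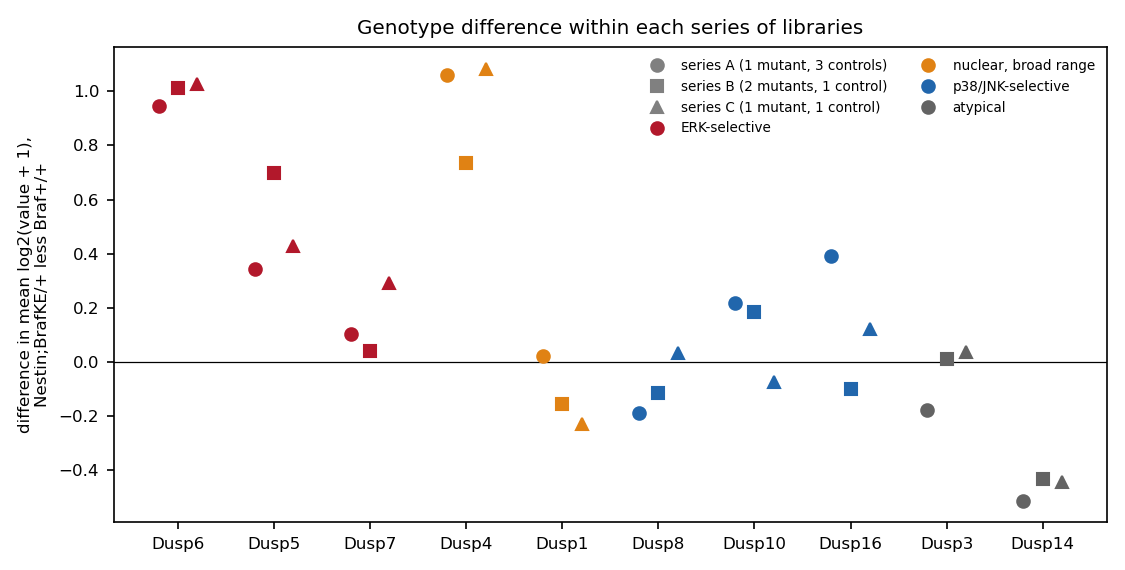
Log2 difference between genotypes within each of series A, B and C for each phosphatase, 1 point per series. Dusp4, Dusp5, Dusp6 and Dusp7 are above zero and Dusp14 below it in all 3 series, whereas the sign varies for the other 5.

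Levels of different genes were compared as signal per kilobase of annotated exon. In controls Dusp3 was highest at 566 ± 27.2 (SD, n = 5), followed by Dusp8 at 307 ± 8.97, Dusp6 at 297 ± 24.1 and Dusp7 at 273 ± 9.62. The ranges of Dusp8 and Dusp6 overlapped, as did those of Dusp6 and Dusp7, so their order is not resolved. Dusp5 at 145 ± 8.57 and Dusp4 at 116 ± 7.39 came next, and then Dusp14 at 78.0 ± 4.16 and Dusp1 at 71.9 ± 5.34, whose ranges overlapped. Dusp16 at 29.4 ± 2.55 and Dusp10 at 19.2 ± 1.31 were lowest. In Nestin;BrafKE/+ Dusp6 stood first at 589.7 ± 25.0 (SD, n = 4), just above Dusp3 at 544 ± 24.9, and Dusp4 reached 226 ± 16.5, with a range overlapping that of Dusp5 at 204 ± 12.7. By the length of the longest transcript instead of all exons, Dusp6 preceded Dusp8 in controls, and Dusp14 at 131.5 preceded Dusp4 at 121.6.

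**Figure D4:**
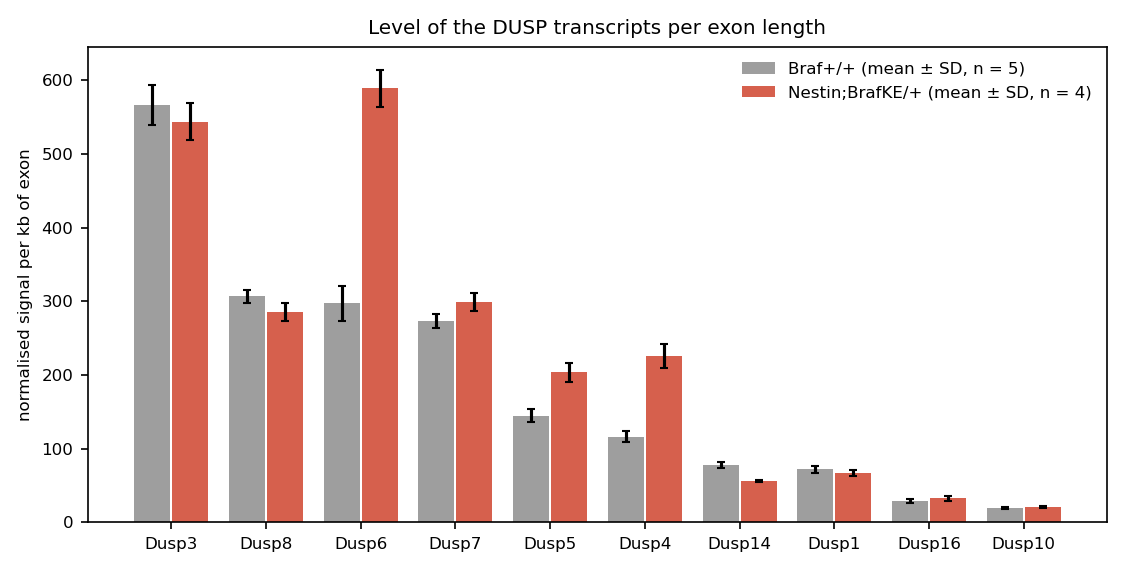
Mean normalised signal per kilobase of annotated exon for the 10 phosphatases as bars from 0 for both genotypes, with the SD over 5 Braf+/+ or 4 Nestin;BrafKE/+ libraries as error bars. Dusp6 moves from 297 to 589.7 and becomes the highest of the 10, ahead of Dusp3.

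The libraries also differed in cell type markers, and in bulk tissue fewer cells of a type and less RNA per cell cannot be told apart. As background for the counts below, 2.88% of all genes tested passed in limma and 18.5% had an unadjusted p under 0.05. Of the hippocampal neuron markers, 5 of 8 were positive (median log2 fold change 0.05) and 2 passed, both markers of CA1 pyramidal cells: Wfs1 rose by 0.61 (limma adjusted p = 0.000371), a call kept in 9 of 9 fits without 1 library, and Fibcd1 by 0.40 (0.0182), a call lost without Nestin;BrafKE/+ replicate 1 (0.0742), Nestin;BrafKE/+ replicate 3 or Braf+/+ replicate 4 (0.105). Their list summed to 127821 to 151590 in mutants and 117294 to 134697 in controls, which overlap. All 8 oligodendrocyte markers had positive log2 fold changes (4 passed: Mobp, Mag, Cldn11 and Mog, median 0.35), with summed signals of 122875 to 132389 in mutants and 89596 to 108461 in controls. Of the 8 astrocyte markers 6 were positive and 3 passed (Gfap, Aldoc and S100b, median 0.28), with sums of 110924 to 124777 against 104157 to 117892. Each of these 7 oligodendrocyte and astrocyte calls was lost without Nestin;BrafKE/+ replicate 1 (adjusted p from 0.0742 to 0.183) and without Braf+/+ replicate 4 (from 0.0525 to 0.253). The 8 choroid plexus markers were all negative, 0 passed in limma (2 at an unadjusted p under 0.05), and their median was -1.51, with sums of 4548 to 391435 in controls. Blood markers were positive in 5 of 5 and 0 passed (4 unadjusted), with sums of 3489 to 6184 against 3180 to 3579. Microglial markers were positive in 5 of 6 with 0 past the threshold (2 unadjusted), and endothelial markers in 4 of 6 and thalamic markers in 2 of 6, again with 0 past it (0 unadjusted). No marker of these lists was at 0, which holds for every gene of the table and so does not tell tissues apart. Without both choroid plexus-rich controls, a choice made after the data were seen, Dusp4 and Dusp6 still passed (adjusted p = 0.0105 for each in limma), whereas Dusp5 (0.152) and Dusp14 (0.128) did not. That fit also left series B, whose only control is Braf+/+ replicate 4, out of the genotype comparison. Both calls were lost without Braf+/+ replicate 4 alone (limma adjusted p = 0.105 for Dusp5 and 0.0798 for Dusp14). They were kept without Braf+/+ replicate 2 alone (0.0324 and 0.0312). The part of neuronal, oligodendrocyte, astrocyte, choroid plexus and blood RNA in the differences of the phosphatases was not tested.

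Other phosphatases that act on or near the pathway were taken from a list. Of 16 further DUSP genes, 12 were in the table and 11 were tested, with 6 positive and 5 negative. In limma 2 of the 11 had an unadjusted p under 0.05, near the 18.5% of all genes, and 1 passed the threshold, against 2.88% of all genes. The gene that passed was Dusp15, an atypical enzyme known from myelinating oligodendrocytes, with 197 ± 9.03 (SD, n = 5) in controls and 284 ± 7.91 (SD, n = 4) in mutants, which rose by 0.52 on the log2 scale (limma adjusted p = 0.0178). Its call was lost without Nestin;BrafKE/+ replicate 1 (0.124), Nestin;BrafKE/+ replicate 3 or Braf+/+ replicate 4 (0.0976). Ptpn5, which encodes STEP, a neuronal tyrosine phosphatase of ERK and p38, had 2143 ± 141 (SD, n = 5) in controls and 3156 ± 254 (SD, n = 4) in mutants, and rose by 0.56 on the log2 scale (SE 0.07, limma adjusted p = 0.00480), but the adjusted p was 0.0674 without Nestin;BrafKE/+ replicate 1. Ptprr, the related receptor-type phosphatase, differed by 0.01 on the same scale (adjusted p = 0.939).

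Of the 7 MAP kinase kinases tested, which activate the substrates of these phosphatases, 2 were positive, 5 negative and 0 passed in limma, where 1 had an unadjusted p under 0.05. Both counts lie near the shares of all genes, 2.88% and 18.5%.

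Beside the phosphatases, ERK signalling induces Sprouty and Spred genes, which also feed back on the pathway. All 6 Sprouty and Spred genes tested, inhibitors that act upstream of ERK, were positive, and 4 passed: Spry4 with a log2 fold change of 0.87 (limma adjusted p = 0.00483), Spred3 with 0.64 (0.00261), Spry2 with 0.47 (0.0346) and Spred2 with 0.30 (0.0159). Without Nestin;BrafKE/+ replicate 1 only Spred3 of the 4 passed. Leaving out Braf+/+ replicate 4 ended the calls for Spry2 and Spred2, which each failed in 4 of the 9 such fits. Of the 3 ETS variant factors, transcription factors induced by ERK, Etv5 rose by 0.58 (0.00193) and passed in 9 of 9 fits without 1 library, Etv4 had a value of 0.60 (0.0581) and Etv1 of 0.01. Values here are log2 fold changes with limma adjusted p-values in parentheses. Of all genes tested, 2.88% passed.

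The 12 immediate early genes, the list closest to Dusp1 in kind, had 8 positive and 4 negative values with a median log2 fold change of 0.04. In limma 1 passed as higher and 1 as lower, against 1.52% and 1.36% of all genes. Arc, which encodes a synaptic protein, rose by 0.77 (limma adjusted p = 0.00707), a call lost without Nestin;BrafKE/+ replicate 1 (0.0742) or Braf+/+ replicate 4 (0.0525). Fos, a subunit of AP-1, had a log2 fold change of -0.67 (limma adjusted p = 0.0457), a call lost in 8 of the 9 fits that left out 1 library. The summed signal of the list ran from 8394 to 10528 in mutants and from 7016 to 8401 in controls. These overlap only in Nestin;BrafKE/+ replicate 2 at 8394 and Braf+/+ replicate 4 at 8401. The other mutants, from 8986 to 10528, lay above every control, and the sum was not tested.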

How the data were processed

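Stranded mRNA libraries (TruSeq) were made from the hippocampus of 4 Nestin;BrafKE/+ and 5 Braf+/+ mice. According to the study's methods and processing notes, the authors used Trim Galore for trimming, STAR for alignment to GRCm39 and Salmon for quantification, then removed the effect of unnamed batches and scaled the values with DESeq2. The deposited table holds 1 normalised signal per gene and library. The values are whole numbers divided by a factor near 1 and are not reads (mt-Co1 has 1 distinct whole number over the 9 libraries). Count models were therefore not used, and precision comes from the spread between animals left after the batch adjustment. Whether that adjustment narrowed the spread was not tested. The SDs, standard errors, p-values and separation of groups given here may therefore be too favourable.

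The test was limma 3.58.1 (R 4.3.3; lmFit and eBayes, trend=TRUE) on log2(value + 1) for genes whose mean was at least 10, with genotype and series as terms. P-values are two-sided, adjusted by Benjamini-Hochberg over all 16196 genes, with a threshold of 0.05. A fold change is on the log2(value + 1) scale. Pairs of members, and each member alone, were tested by exact two-sided permutation over all assignments of the libraries (smallest possible p 0.00794), and over the 24 within series. For the level of a class, each gene's log2 values were centred on 0 and then averaged over the genes. Coordinates and lengths came from Gencode vM39 on GRCm39, and the authors' annotation was Gencode vM28. Python 3.11.15 with pandas 2.3.3 and matplotlib 3.10.9 made the tables and figures.

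Members and gene lists were chosen with earlier results of these data known. All 10 members are named, and of the lists reported the genes past the threshold; the others named from them were chosen after their values were seen. The 5 genes most correlated with Dusp6 were named by rule. The steps were tested on simulated data. For this comparison, 200 of 16196 genes were shifted: a log2 shift of 0.5 was recovered in 36.5% of them (3.95% of calls wrong) and a shift of 1 in 75.5% (6.79% wrong).

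The alternatives were pseudocounts of 0.5 and 8, a minimum mean of 50 or none, median-of-ratios or quantile scaling, no series term, 4 name prefixes, a replicate block, array weights, robust eBayes, a threshold of 0.1, other exon lengths, permutation within series, and leaving out each library in turn. Leaving out both choroid plexus-rich controls was added after seeing the data. The human spheroid libraries of the study were not analysed here. Values of the MAP kinase genes themselves are not reported here.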

Additional observations from a re-analysis of the deposited data

Results flagged for a closer look

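Dusp6 in Braf+/+ replicate 3 stood apart from the other controls, at 1148 against a next highest signal of 996.3. Its gap was 0.716 of the range of the group, above Dixon's 95% critical value of 0.71 for 5 samples. It was the 1 case among 20 groups examined (10 phosphatases in 2 genotypes), and chance alone marks about 1 in 20. Without that library the log2 fold change of Dusp6 was 1.02 (SE 0.06, limma adjusted p = 0.000158), against 0.99 with it.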

How the results depend on the processing

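The number of genes past the threshold, 466, depended on the model: 2260 with no series term, 1405 with a replicate block, 927 at a threshold of 0.1, 258 with array weights, 165 with 4 name prefixes and 58 without both choroid plexus-rich controls. Leaving out 1 library gave 42 to 369 (42 without Nestin;BrafKE/+ replicate 1, 97 without Braf+/+ replicate 4, 165 without Nestin;BrafKE/+ replicate 3 and 281 without Braf+/+ replicate 1). Of the members, 4 passed in each alternative that kept all libraries except 4 name prefixes, where 3 did (Dusp14, adjusted p = 0.0519). Leaving out 1 library gave 2 to 4 (2 without Nestin;BrafKE/+ replicate 1 or Braf+/+ replicate 4), and 2 passed without both choroid plexus-rich controls. Nestin;BrafKE/+ replicate 1 is the only mutant of series A and Braf+/+ replicate 4 the only control of series B. Fits without either library compared the genotypes in the other series only. The difference of class medians, 0.36, ran from 0.28 (without Braf+/+ replicate 4) to 0.59 (without Nestin;BrafKE/+ replicate 1). Pairs past the threshold, 6, were 5 to 7 without 1 library. Permuted within series they were 0, although each of these 6 pairs had the smallest p that the 24 assignments allow (0.0417, adjusted p = 0.0556).

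The sign changed when 1 library was left out for Dusp3 (-0.093 to 0.021), Dusp16 (-0.0050 to 0.28) and the Dusp16 to Dusp10 ratio (-0.045 to 0.072), none of which had passed. For Dusp3 and Dusp16 the sign changed in the fit without Nestin;BrafKE/+ replicate 1, which took series A out of the genotype comparison. Within series A, B and C the difference was -0.18, 0.01 and 0.04 for Dusp3 and 0.39, -0.10 and 0.12 for Dusp16. Why the series differed was not tested. Replicate numbers were not taken to pair the samples, and whether they do is not settled. Deviations of same-numbered libraries correlated at -0.390 to 0.415. The control most alike had the same number for Nestin;BrafKE/+ replicate 4 and another number for replicates 1, 2 and 3. With the replicate block all 4 member calls stayed in place. Sequencing depth is unknown, so the precision is that of 4 and 5 animals, as seen in values already adjusted for batches.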

Other observations

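The 5 genes whose log2 values followed Dusp6 most closely over the 9 libraries, among 11881 genes with a mean of at least 100, were Septin8 (Pearson's r = 0.995), Etv5 (0.995), Pex5l (0.991), Tagln3 (0.989) and Kcnip1 (0.988). The correlation spans both genotypes, so it holds the difference between them, and no p-value belongs to it. Etv5, an ETS transcription factor, rose from a mean of 1578 to 2363, and Kcnip1, a potassium channel-interacting protein, from 331 to 591. Pex5l and Tagln3 also passed the limma test, with log2 fold changes of 0.26 (adjusted p = 0.0146) and 0.37 (0.00488), calls that both failed without Nestin;BrafKE/+ replicate 1 (0.0837 and 0.0622) and, for Pex5l, without Braf+/+ replicate 4 (0.0690), whereas Septin8, a cytoskeletal GTPase, had 0.17 (0.0542).

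Glucocorticoids also induce Dusp1, and 8 other genes known to respond to them had 2 positive and 6 negative log2 fold changes, with a median of -0.07. With limma 0 passed after adjustment (2.88% of all genes did) and 2 had an unadjusted p under 0.05, near the 18.5% of all genes. These 2 were Plin4, a lipid droplet protein, at 82.5 ± 30.2 (SD, n = 4) in mutants and 173.5 ± 49.7 (SD, n = 5) in controls (limma adjusted p = 0.0815), and Sgk1, a stress-responsive kinase (log2 fold change -0.27, limma adjusted p = 0.214).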
